A study of Mus musculus with 2 samples.

Results

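Mir132, Mir212, Mir137 and Mir384 are 4 microRNA (miRNA) genes studied for their part in synaptic plasticity, and they are described here in wild-type mouse hippocampus. They were taken by gene name in GENCODE release M21 and make up 4 of the 2202 miRNA genes in each count table. All 4 names matched 1 gene each. The tissue was hippocampus from wild-type C57BL/6 mice (strain B6NCrl, labelled male in the description, although the sex field reads not collected) at 6 months of age, described as a layer of hippocampus with the layer not named. The only group holds 2 libraries, labelled as biological replicates 1 and 2. They come from 2 biosamples with 1 donor identifier, and nothing states that these were separate animals, so the spread between the libraries may be technical. No treatment, stimulation or mutant was compared, and the libraries hold neurons, glia and vessels together.

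A miRNA gene is transcribed into a long primary transcript, which is cut to a hairpin and then to a duplex of a 5p and a 3p arm. One arm is loaded into an Argonaute protein and represses messenger RNAs that pair with its seed, bases 2 to 8 of the mature miRNA. In neurons, miRNAs can act on messenger RNAs in dendrites and at synapses, and some of them are themselves made or degraded in response to synaptic activity. Mir132 and Mir212 are made from a common primary transcript whose production is driven by the transcription factor CREB after neuronal activity or neurotrophin signalling, and miR-132 promotes the growth of dendrites and spines. miR-137 acts on neuronal differentiation and on presynaptic vesicle genes, and its human locus is associated with schizophrenia. miR-384-5p is involved, in rodent hippocampal neurons, in the maintenance of long-term potentiation.

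The mature sequences are shown first because 3 of the 4 genes are related to another miRNA gene through their seed. They come from RefSeq (GRCm38.p6), run 5′ to 3′, and have the seed in capitals. All 4 genes had both arms in that table.

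miR-132-3p: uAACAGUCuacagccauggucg
miR-212-3p: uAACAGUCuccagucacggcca
miR-132-5p: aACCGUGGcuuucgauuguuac
miR-212-5p: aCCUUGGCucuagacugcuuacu
miR-137-3p: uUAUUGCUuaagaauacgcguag
miR-384-5p: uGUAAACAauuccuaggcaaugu
miR-30a-5p: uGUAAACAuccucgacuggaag

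The 3p arms of Mir132 and Mir212 shared the seed AACAGUC and were identical over their first 9 bases. Counted from base 1 of miR-132-3p, they differed by A10C, C14U, U17C, U20C and G22A, so that 17 of 22 bases matched. Their 5p arms had different seeds and matched at 9 of 22 bases when aligned from base 1 without gaps. Among the 1738 mature entries of the table, AACAGUC occurred in these 2 miRNAs alone. The seed of miR-137-3p, UAUUGCU, occurred in no other entry. The 5p arm of Mir384 carried the seed GUAAACA, which the table also gives for Mir30a, Mir30c-1, Mir30c-2 and Mir30e of the miR-30 family. It held no entry for Mir30b and Mir30d of that family, so their seeds were not compared. Beyond the first 8 bases miR-384-5p and miR-30a-5p diverged, with 12 of 22 bases matching over the whole length. None of the 8 arms was found in another annotated hairpin, and no hairpin of the 4 shared a stretch of 20 bases with another one. Copies outside annotated transcripts were not searched.

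Mir212 (ENSMUSG00000065590.1, mm10, chromosome 11, 75173388 to 75173478, plus strand) and Mir132 (ENSMUSG00000065537.2, chromosome 11, 75173682 to 75173747, plus strand) lay 203 bases apart. The gene that holds both in an intron, on the same strand, is the noncoding 1700016P03Rik (chromosome 11, 75172560 to 75177633). Mir137 (ENSMUSG00000065569.2, chromosome 3, 118433857 to 118433929, plus strand) overlapped exons of the noncoding gene Gm26871 in 3 of its 6 annotated transcripts. Mir384 (ENSMUSG00000065499.1, chromosome X, 105344282 to 105344369, minus strand) lay in no annotated gene, 3912 bases downstream of the noncoding gene 5330434G04Rik. Within 10 kb the tables held 1 other miRNA gene, Gm24155, which lies 791 bases from Mir137. It had 3 counts in replicate 2 and 1 in replicate 1, no more than the 3 counts that a count of 0 allows.

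The replicate 2 library held 12627039 reads, of which 5041568 were counted on miRNA genes, and the replicate 1 library held 11106392 reads, of which 4247092 were counted. Reads that aligned to more than 1 place, 45.7% in replicate 2 and 43.8% in replicate 1, entered no gene's count. Levels are given in CPM, counts per 1000000 reads counted on miRNA genes, and the floor of 3 counts equals 0.595 CPM in replicate 2 against 0.706 CPM in replicate 1. All intervals treat each read as independent and cover counting error only. No molecular identifiers are named in the labels, so copies made in amplification were not removed and the intervals may be too narrow. Of the neuron-enriched miRNA genes listed to describe the tissue, with the 4 genes left out, 17 of 23 reached 10 CPM in both libraries. Such a list cannot tell hippocampus from other brain regions, so it does not check the label. The 23 genes summed to 177381 CPM in replicate 2 against 179835 CPM in replicate 1, most of it Mir139. No gene of the list was at 0 in both libraries, although Mir124a-1, Mir124a-2 and Mir124a-3, whose mature sequence stands at several loci, had at most 8 counts each.

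All 4 genes were well above the floor, and their levels spanned more than 100-fold between Mir132 and Mir384. Mir132, 1 of the 2 activity-induced genes with the AACAGUC seed, had 73630 counts in replicate 2 and 136214 in replicate 1. This equalled 14605 CPM in replicate 2 against 32072 CPM in replicate 1, with a mean of 23338 ± 12352 CPM (SD, n = 2). By counted reads, Mir132 ranked 12th in replicate 2 and 7th in replicate 1 among all miRNA genes. It held 1.46% of counted reads in replicate 2 (exact 95% confidence interval 1.45 to 1.47%) and 3.21% in replicate 1 (3.19 to 3.22%). Replicate 1 was thus the high library for Mir132, and its rank stayed among the 12 highest in both. All ranks, here and below, leave out reads that aligned to more than 1 place. Genes that lost such reads can stand too low, and the 4 genes can then rank too high.

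Mir137, the regulator of presynaptic genes, had 11002 counts in replicate 2 and 8552 in replicate 1, or 2182 CPM in replicate 2 against 2014 CPM in replicate 1. Its mean was 2098 ± 119 CPM (SD, n = 2), at rank 60 in replicate 2 and rank 65 in replicate 1. Of the 4 genes it had the smallest spread between the libraries, 5.68% of its mean, against 52.9% for Mir132.

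Mir212, the partner of Mir132 in the common primary transcript, had 3086 counts in replicate 2 and 4129 in replicate 1, or 612 CPM in replicate 2 against 972 CPM in replicate 1. Its mean was 792 ± 255 CPM (SD, n = 2), at rank 111 in replicate 2 and rank 94 in replicate 1. Mir384, the gene tied to maintenance of potentiation, had 566 counts in replicate 2 and 656 in replicate 1, or 112 CPM in replicate 2 against 154 CPM in replicate 1. Its mean was 133 ± 29.8 CPM (SD, n = 2), at rank 190 in replicate 2 and rank 169 in replicate 1. As for Mir132, replicate 1 was the higher library for both.

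The order Mir132, Mir137, Mir212, Mir384 was the same in both libraries, and no gene's values overlapped those of its neighbour in that order. The lowest Mir132 value, 14605 CPM, stood above the highest Mir137 value, 2182 CPM, the lowest Mir137 value, 2014 CPM, above the highest Mir212 value, 972 CPM, and the lowest Mir212 value, 612 CPM, above the highest Mir384 value, 154 CPM. CPM were not divided by length, since a hairpin is counted by its mature products. Divided by hairpin length and rescaled to the same total as CPM, the mean levels were 28137 for Mir132, 2289.6 for Mir137, 693 for Mir212 and 121 for Mir384, in the same order. How readily each mature sequence is ligated and amplified was not measured, so differences between genes describe counted reads.

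**Figure D1:**
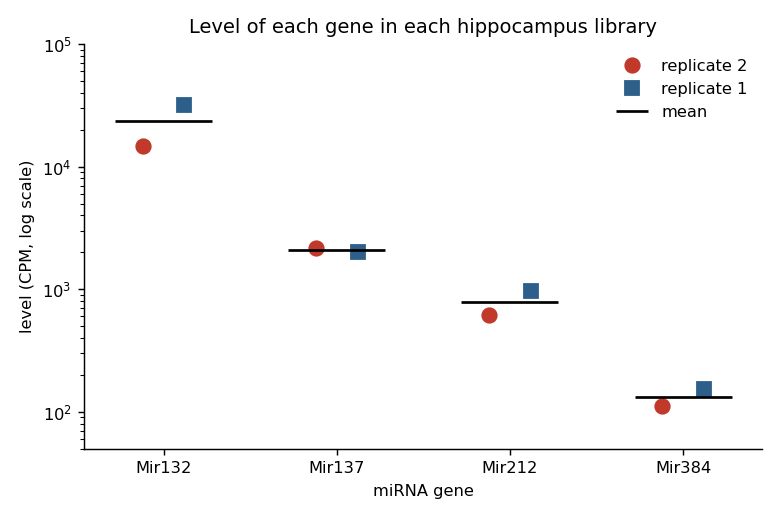
Level of each gene in CPM (log scale) in replicate 2 (circles) and replicate 1 (squares) of the hippocampus libraries, with the mean as a line. Mir132 lies highest, at 14605 CPM in replicate 2 against 32072 CPM in replicate 1, and the 4 genes do not overlap.

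The genes next to each member in mean level were as follows. Mir132, at rank 10, stood between Mir125a (32303 CPM in replicate 2 against 19486 CPM in replicate 1) and Mir23b (24103 CPM in replicate 2 against 21316 CPM in replicate 1). The values of Mir125a and Mir23b lie within the span of the Mir132 values or overlap it, so the ranks of these neighbours do not differ beyond the spread. Mir137, at rank 59, stood between Mir338 (2254 ± 111 CPM) and Mir154 (2097 ± 215 CPM; SD, n = 2). Mir212, at rank 105, stood between Mir3102 (797 ± 198 CPM) and Mir532 (783 ± 81.1 CPM; SD, n = 2). Mir384, at rank 181, stood between Mir421 (139 ± 23.5 CPM) and Mir322 (133 ± 26.5 CPM; SD, n = 2). Each of these neighbours lay within 1 SD of the mean of the gene it stood next to, except Mir338, whose mean lay further above that of Mir137.

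**Figure D2:**
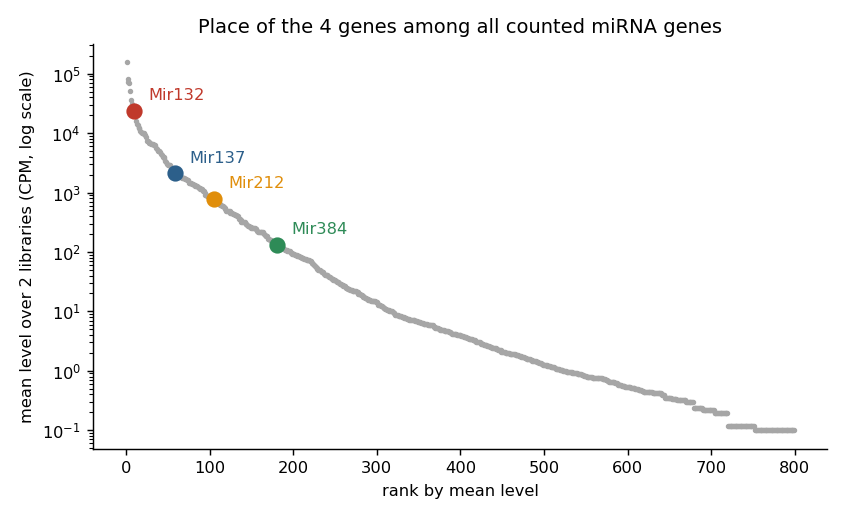
Mean level over the 2 libraries in CPM (log scale) against rank for every miRNA gene with a count, with the 4 genes coloured and named. Mir132 stands at rank 10, Mir137 at rank 59, Mir212 at rank 105 and Mir384 at rank 181. Ranks are by counted reads, so genes that lost reads to several loci can stand too low.

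Of the 4 genes, Mir132 differed most between the libraries. Its CPM in replicate 2 were 0.455 times those in replicate 1, a log2 ratio of −1.13 (replicate 2 over replicate 1, exact 95% interval −1.15 to −1.12). Mir212 had a log2 ratio of −0.67 (−0.74 to −0.60) and Mir384 of −0.46 (−0.63 to −0.30). Mir137 had a log2 ratio of 0.12 (0.08 to 0.16), so its CPM were 1.08 times those of replicate 1. In tissue RNA, fewer cells that express a miRNA and less of it per cell cannot be told apart.

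Each gene's counts were compared between the libraries by a two-sided exact binomial test, with Benjamini-Hochberg adjustment over 522 genes. All 4 genes passed, but so did 51.0% of all genes tested. When only the 311 genes with at least 100 counts over both libraries were tested, a level all 4 reached, 240 passed. Lower in replicate 2 were Mir132, Mir212 (adjusted p = 2.32e-84, exact binomial test) and Mir384 (adjusted p = 9.42e-08, exact binomial test), as were 22.8% of all genes tested. Higher was Mir137 (adjusted p = 7.88e-08, exact binomial test), as were 28.2%. The balance of these shares turned with the scaling, to 135 lower and 123 higher genes under TMM and 135 lower and 122 higher under DESeq2 size factors, where it was 119 lower and 147 higher in CPM. The call for Mir137 was lost when libraries were scaled by TMM (adjusted p = 0.0729, exact binomial test) or by DESeq2 size factors (adjusted p = 0.0989, exact binomial test), which lowered every log2 ratio by about 0.07 or 0.08. The test compares the reads of 2 libraries, not conditions.

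By size, 2 of the 4 genes, Mir132 and Mir212, were past 1.5-fold between the libraries, as were 30.1% of the 302 genes with at least 10 CPM in both. Mir132 alone was past 2-fold, at 2.20-fold, as were 9.27% of the 302 genes. Among these 302 genes, 11 had a lower log2 ratio than Mir132, 31 a lower one than Mir212 and 53 a lower one than Mir384. For Mir137, 173 were lower and 128 higher, near the middle of the distribution, whose median was 0.05.

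**Figure D3:**
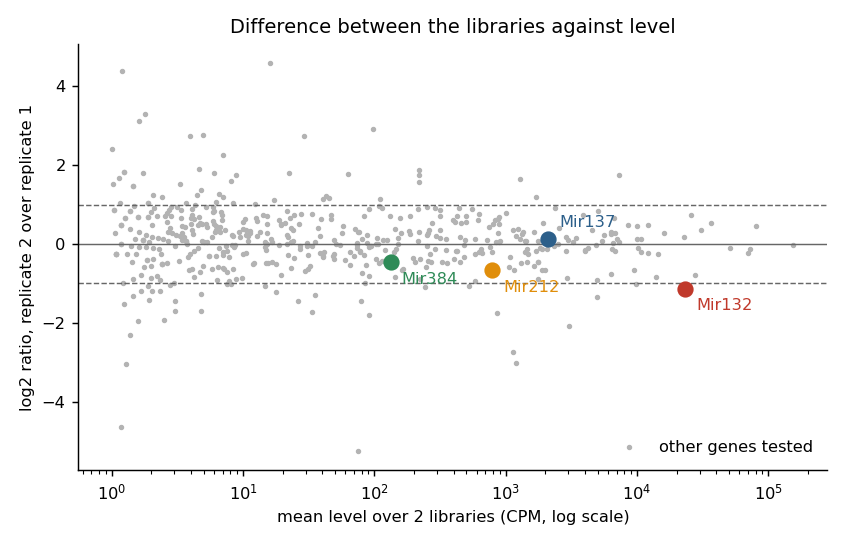
Log2 ratio of replicate 2 over replicate 1 against mean level in CPM (log scale) for the 522 genes with at least 10 counts over both libraries, with the 4 genes coloured and dashed lines at 2-fold. Mir132 lies below the lower dashed line at −1.13, and Mir137 lies near 0 at 0.12.

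Genes with the most similar ratio were looked up among those whose mean count was 100 or more. The measure was the difference in log2 ratio over 2 libraries, so it holds 1 number per gene. Closest to Mir132 were Mir496a (log2 ratio −1.09) and Mir129-1 (−1.07). Closest to Mir212 were Mir143 (−0.67) and Mirlet7f-1 (−0.67), to Mir137 Mirlet7c-1 (0.12) and Mir7689 (0.11), and to Mir384 Mir370 (−0.46) and Mir17 (−0.46).

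Ratios of genes within a library do not depend on the scaling. There were 23.9 Mir132 counts for each Mir212 count in replicate 2 (exact 95% confidence interval 23.0 to 24.7) and 33.0 in replicate 1 (32.0 to 34.0). The odds ratio of replicate 2 over replicate 1 was 0.723 (exact conditional 95% interval 0.690 to 0.759). The 2 genes of the common primary transcript were thus both lower in replicate 2, Mir132 by more than Mir212. Their sum was 15217 CPM in replicate 2 against 33044 CPM in replicate 1, and Mir132 held 96.0% of it in replicate 2 (95.8 to 96.1%) and 97.1% in replicate 1 (97.0 to 97.1%).

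Mir132 shifted more against Mir137. The ratio of Mir132 to Mir137 was 6.69 in replicate 2 (6.56 to 6.83) and 15.9 in replicate 1 (15.6 to 16.3), an odds ratio of 0.420 (0.408 to 0.433). The smallest shift of the 6 pairs was that between Mir212 and Mir384, with a ratio of 5.45 in replicate 2 (4.98 to 5.97) and 6.29 in replicate 1 (5.80 to 6.85) and an odds ratio of 0.866 (0.766 to 0.980). The remaining odds ratios were 0.627 for Mir132 to Mir384, 0.581 for Mir212 to Mir137 and 1.49 for Mir137 to Mir384. All 6 intervals left out 1. These intervals count reads and include no spread between animals.

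**Figure D4:**
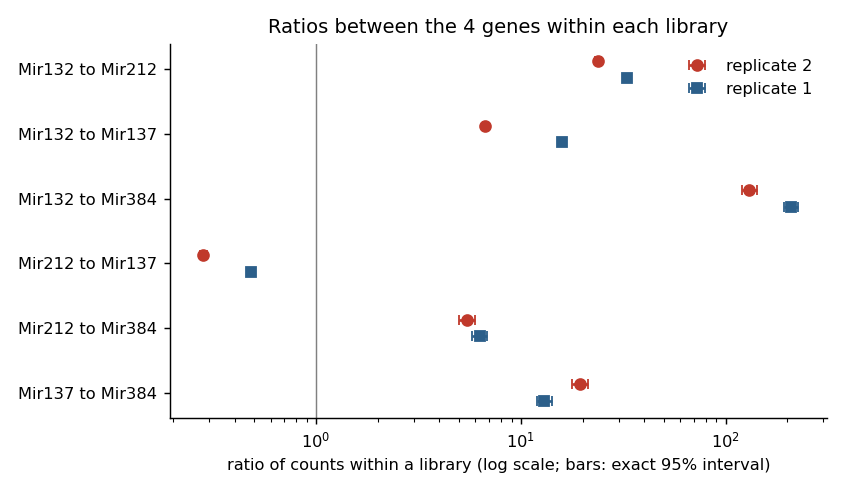
Ratio of counts within a library (log scale) for the 6 pairs of genes in replicate 2 (circles) and replicate 1 (squares), with exact 95% intervals as bars. The ratio of Mir132 to Mir137 moves furthest, with 6.69 in replicate 2 and 15.9 in replicate 1, and the intervals of Mir212 to Mir384 overlap.

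Together the 4 genes held 1.75% of counted reads in replicate 2 (exact 95% confidence interval 1.74 to 1.76%) and 3.52% in replicate 1 (3.50 to 3.54%). Mir132 made up 83.4% of that sum in replicate 2 and 91.1% in replicate 1. Without Mir132, the other 3 genes summed to 2907 CPM in replicate 2 against 3140 CPM in replicate 1.

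The GUAAACA seed of miR-384-5p was carried mostly by other genes. Mir30a had 3740 CPM in replicate 2 against 4253 CPM in replicate 1, and Mir30e had 1799.6 CPM in replicate 2 against 1456 CPM in replicate 1. Mir30c-2 had 314 CPM in replicate 2 against 273 CPM in replicate 1, and Mir30c-1 had 141 CPM in replicate 2 against 153 CPM in replicate 1. Of the counts on the 5 genes with this seed in the table, Mir384 held 1.84% in replicate 2 (exact 95% confidence interval 1.69 to 1.99%) and 2.46% in replicate 1 (2.27 to 2.65%). Mir30b and Mir30d had no entry in that table, so these 5 genes leave out part of the miR-30 family. All 6 miR-30 genes summed to 16115 CPM in replicate 2 against 17758 CPM in replicate 1. Set against all 6, with Mir30b and Mir30d included, the share of Mir384 was 0.692% in replicate 2 and 0.862% in replicate 1. Counts per hairpin do not separate the arms, so these shares cover reads of both arms of each gene, and mature sequences with several loci lack the reads that aligned to more than 1 place. For the AACAGUC seed the reverse held, with Mir132 and Mir212 as its only genes in the table.

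The strand on which reads were counted hardly changed the counts of the 4 genes. The count without regard to strand equalled that on the gene's strand in both libraries for Mir132, Mir137 and Mir384. Mir212 had 3087 counts without regard to strand, against 3086 on its strand, in replicate 2, and 4129 in both columns in replicate 1. The opposite strand held 1 count for Mir212 in replicate 2 and 0 in all other cases.

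Other miRNAs studied in dendrites, spines or activity-dependent plasticity were set beside the 4 genes. Of 40 such genes, 32 reached 10 CPM in both libraries. Tested were the 38 with 10 counts or more, of which 17 were lower and 14 higher in replicate 2 by the exact binomial test. Among all genes tested, 22.8% were lower and 28.2% higher. Calls are more frequent at higher counts. Of the 311 genes with at least 100 counts over both libraries, 108 were lower and 132 higher. The list was not compared with genes of matched level. The median log2 ratio of the 38 was −0.13, and that of all 522 genes tested was 0.09.

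The 5 with the highest mean level were Mir125a, whose miRNA represses the postsynaptic scaffold PSD-95, Mir29a, Mir191, which takes part in spine remodelling during long-term depression, Mir128-1 and Mir22. Mir125a was higher in replicate 2, at 32303 CPM in replicate 2 against 19486 CPM in replicate 1 (log2 ratio 0.73). Mir29a had a log2 ratio of 0.28, Mir191 of −0.22, Mir128-1 of −0.12 and Mir22 of 0.26. Within the top of the list, Mir132 and Mir125a therefore differed between the libraries in opposite directions. The order of the list is by reads that aligned to 1 place. Members with several loci, among them Mir128-1 with Mir128-2 as the other locus, can stand too low in it.

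Of the 32 that reached 10 CPM in both libraries, 2 were past 2-fold, Mir129-1 and Mir135b, and of all genes at that level 9.27% were. Mir135a-1, Mir26a-1 and Mir9-3 were past 2-fold too but fell short of 10 CPM in 1 library each. Mir129-1 had 340 CPM in replicate 2 against 712 CPM in replicate 1, while Mir129-2, the other locus of the mature miR-129-5p, had 2490 CPM in replicate 2 against 2483 CPM in replicate 1. Mir135b, of the family that acts with miR-191 in depression of synapses, had 104 counts in replicate 2 and 214 in replicate 1, and Mir135a-1 had 27 counts in replicate 2 and 46 in replicate 1. Mir26a-1, whose miRNA is tied, like miR-384-5p, to maintenance of potentiation, had 19 counts in replicate 2 and 622 in replicate 1. Mir9-3 was the only one of these that was higher in replicate 2, with 257 counts in replicate 2 and 32 in replicate 1. The miR-129-5p, miR-135a, miR-26a and miR-9 sequences each stand at several loci, so reads shared between those loci are missing from these counts. The counts of Mir129-1 and Mir129-2 are therefore not levels of the shared miR-129-5p. Mir124a-2, with 0 counts in replicate 2 and 2 in replicate 1, was at or under the floor in both.

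**Figure D5:**
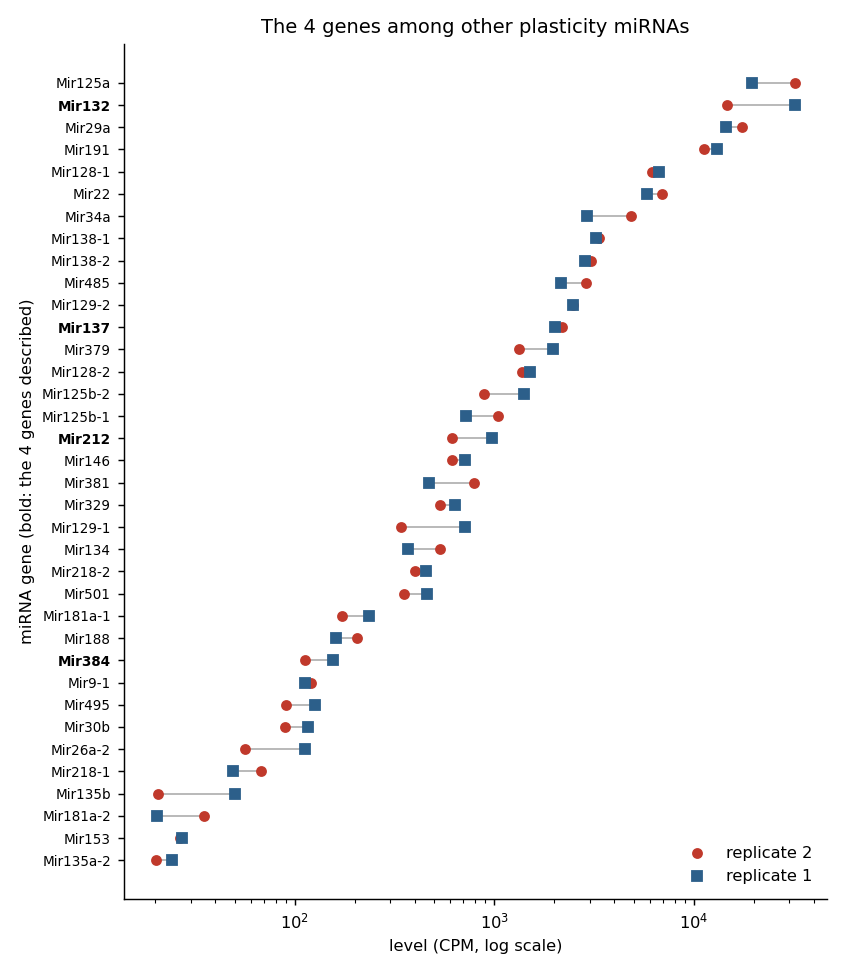
Level in CPM (log scale) of the 4 genes (bold) and of the 32 other plasticity miRNAs with at least 10 CPM in both libraries, in replicate 2 (circles) and replicate 1 (squares), ordered by mean level. Mir132 stands second from the top, and its points at 14605 CPM in replicate 2 against 32072 CPM in replicate 1 lie further apart than those of the genes around it.

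Summed levels of marker lists for other cell types lay in both directions between the libraries. The choroid plexus and ependyma list summed to 3470 CPM in replicate 2 against 11419 CPM in replicate 1. Of its 7 members with at least 10 counts, 5 passed the test as lower and 1 as higher in replicate 2. Over all genes tested, 22.8% were lower and 28.2% higher, which is also the background for the counts of the other lists, each of 6 or fewer genes tested apart from the neuron-enriched one. Mir449b was at 0 in both libraries. Mir204, a main miRNA of choroid plexus epithelium, had 2780.3 CPM in replicate 2 against 7102 CPM in replicate 1, and Mir34c, of ciliated cells, had 296 CPM in replicate 2 against 1959 CPM in replicate 1. Mir449a, of the same family in ciliated cells, was the member that was higher, with 141 counts in replicate 2 against 75 counts in replicate 1 (log2 ratio 0.66). The microglia and leukocyte list summed to 3028 CPM in replicate 2 against 3700 CPM in replicate 1 (4 of 6 lower), and the pituitary and hypothalamus list to 2081 CPM in replicate 2 against 2742 CPM in replicate 1 (3 of 4 lower, 1 higher). The oligodendrocyte list summed to 8786 CPM in replicate 2 against 5817 CPM in replicate 1, with 2 of 3 tested members higher and Mir219b at 0 in both. Most of that difference lay in Mir219a-2, with 6444 CPM in replicate 2 against 3630 CPM in replicate 1 (log2 ratio 0.83). Mir338, the other member called higher, had a log2 ratio of 0.10, and Mir219a-1, which did not pass, of −0.22.

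The vascular list summed to 8769 CPM in replicate 2 against 8456 CPM in replicate 1 (2 of 3 lower, 1 higher), and the erythroid list to 23.8 CPM in replicate 2 against 18.8 CPM in replicate 1, with 1 of its 3 genes at 10 CPM in both and neither of its 2 tested genes past the test. The neuron-enriched list without Mir139 and without the 4 genes summed to 24081 CPM in replicate 2 against 23236 CPM in replicate 1. This difference was smaller than the shift between scalings and of no firm direction. Of the 22 genes tested on this list, Mir139 included, 9 were lower and 6 higher in replicate 2. Their median log2 ratio was −0.08, against 0.09 over all genes tested. The near-equal sum thus does not mean that the genes of the list were unchanged. The part of these lists in the difference of the 4 genes was not tested. The adapter-trimming document named in the labels is also not the same for both libraries, and this difference cannot be told apart from the library.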

How the data were processed

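Per the file headers, reads were placed on mm10 with GENCODE M21. No aligner or counter is named (not given in the sources used here). Deposited by the authors were tables of raw read counts, 1 table per library, with 3 count columns and 4 summary rows. Counts on the gene's strand were used, and library sizes exclude the summary rows. Unaligned reads were 11.4% of replicate 2 and 15.1% of replicate 1, and reads outside miRNA genes were 3.00% and 2.92%. The members and lists were chosen with earlier results of these data known.

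CPM was computed over all gene rows. Each gene with at least 10 counts over both libraries was tested with an exact two-sided binomial test (Benjamini-Hochberg over all tested, threshold 0.05), because with 1 library on each side edgeR has no replicates to fit. Log2 ratios used 0.5 added counts. Ratio and share intervals are exact 95% intervals (Clopper-Pearson), and odds ratios have exact conditional ones. One listed symbol, Mir142hg, matched no gene. The motif search was not run.

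Named genes were the members, their neighbours in mean CPM, the 2 closest log2 ratios, the 5 highest and those past 2-fold of the plasticity list, and genes sharing a seed or lying within 10 kb. Python 3.11.15, scipy 1.17.1, R 4.3.3, edgeR 4.0.16 (TMM), DESeq2 1.42.0 (size factors) and ViennaRNA 2.7.2 (hairpin folding) were used.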

Additional observations from a re-analysis of the deposited data

How the results depend on the processing

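The log2 ratio of each of the 4 genes kept its sign under the 4 other scalings and columns, and 2 calls were lost. Both were of Mir137, at log2 ratios of 0.0433 under TMM scaling and 0.0401 under DESeq2 size factors, because these scalings lowered every ratio by 0.07 and 0.08. With all reads as the library size, mean levels were by construction lower, at 9048 counts per 1000000 reads for Mir132, 821 for Mir137, 308 for Mir212 and 51.9 for Mir384. The level of Mir137 was 2252 CPM in counts without regard to strand. Divided by hairpin length and rescaled to the same total as CPM, it was 2289.6. The log2 ratio of Mir132 ranged over these scalings and columns between −1.21 and −1.07. Leaving out a library left the single value of the other, which with 2 libraries is no test of stability, and for Mir132 gave 14605 CPM without replicate 1 and 32072 CPM without replicate 2. The count of genes that differed between the libraries ranged between 240 and 275 over 6 alternatives, against 266 of 522 tested. The lowest count, 240, was out of the 311 genes with at least 100 counts. With all reads as the library size, 109 were lower and 166 higher. Of the other plasticity miRNAs, 37 reached a minimum of 1 CPM and 24 one of 100 CPM, against 32. Depth did not limit the 4 genes, of which the lowest had 566 counts in a library. What limits them is the number of libraries, since 2 of 1 group give a spread but no test between conditions.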

Other observations

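The 4 hairpins differed in base composition. That of Mir212 (91 bases) was 69.2% G and C, and 5 of the 302 genes with at least 10 CPM in both libraries had a higher share. That of Mir384 (88 bases) was 33.0% G and C, with 300 of the 302 genes higher. Mir132 (66 bases) had 57.6% and Mir137 (73 bases) 45.2%, and the median over the 302 genes was 51.4%. The minimum free energy predicted for folding was −37.2 kcal/mol for Mir132, −41.5 kcal/mol for Mir212, −31.2 kcal/mol for Mir137 and −25.9 kcal/mol for Mir384. Per base of hairpin it was lowest for Mir132, at −0.564 kcal/mol, and highest for Mir384, at −0.294 kcal/mol, with −0.456 kcal/mol for Mir212 and −0.427 kcal/mol for Mir137. These are properties of the sequences, given as a description beside the levels.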
